A study of Mus musculus with 4 samples.

Results

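The 5 genes described here are Ccnd1, Ccnd2 and Ccnd3, which encode cyclins D1, D2 and D3, and Cdk4 and Cdk6, which encode their kinase partners, out of 21883 protein-coding genes that RefSeq places on GRCm38.p6, which is the same assembly as mm10. They were chosen by name, with earlier results of these data known, and each was taken with 100 kb on either side. ATAC-seq, which uses a transposase to cut and tag open DNA, had been applied to MPP3 cells sorted from the bone marrow of WT-iMOS mice 3 months of age. MPP3 cells are multipotent progenitors biased towards granulocytes and monocytes. There were 2 T2 libraries (genotype label WTiMOS_T2) and 2 T1 libraries (WTiMOS_T1), and what T2 and T1 stand for, and whether replicates are separate animals, is not given in the labels. Each library is an authors' list of peaks on mm10, with no read counts, so its depth is unknown. The series asks about Bcl11a in MPP3 cells, and the comparison made here is T2 against T1. Merging peaks that touch by 1 bp or more gave 77914 regions over the 4 libraries, of which 147 lay in the 5 gene windows.

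D-type cyclins are made in response to growth signals and bind CDK4 or CDK6. The active kinases phosphorylate the retinoblastoma protein, which frees E2F factors to drive entry into S phase, and INK4 and CIP/KIP proteins restrain them. In blood, CDK6 and cyclins D2 and D3 are prominent in progenitors and lymphoid precursors, and CDK6 is known for its part in the exit of stem cells from quiescence.

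The RefSeq promoter table matched 3 of the 5 genes, with 1 listed start site for Cdk4 and for Cdk6 and 2 for Ccnd3. The 250 bases before each start are printed 5′ to 3′ because each of the 4 starts lay in a region with peaks in at least 3 libraries. The sequences are RefSeq's on GRCm38.p6. Capitals mark every match, on either strand, to 1 of 11 searched motifs. The searched letters were CACGTG for the E-box that MYC binds, GGGCGG for the GC box that SP factors bind, and CCAAT for the box that NF-Y binds. For the cyclic AMP response element they were TGACGTCA, and for the element bound by FOS and JUN factors, AP-1, they were TGANTCA. An E2F element was counted where the stretch held TTTCGCG, a second accepted form with the letters TTTGGCG, or a further accepted form with the letters TTTCCCG. For blood transcription factors the letters were AGATAA for members of the GATA family, CCGGAAG for members of the ETS family and TGTGGT for members of the RUNX family. The short core TGACCA was used for BCL11A, the factor the series is about, and TATAAA for the TATA box.
Cdk4 (chr10:127063285-127063534, plus strand): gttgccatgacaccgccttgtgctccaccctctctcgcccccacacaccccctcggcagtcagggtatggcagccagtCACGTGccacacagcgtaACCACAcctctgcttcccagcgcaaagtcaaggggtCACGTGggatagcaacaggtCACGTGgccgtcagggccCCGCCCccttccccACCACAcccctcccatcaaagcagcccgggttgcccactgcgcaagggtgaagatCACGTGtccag
Cdk6 (chr5:3343643-3343892, plus strand): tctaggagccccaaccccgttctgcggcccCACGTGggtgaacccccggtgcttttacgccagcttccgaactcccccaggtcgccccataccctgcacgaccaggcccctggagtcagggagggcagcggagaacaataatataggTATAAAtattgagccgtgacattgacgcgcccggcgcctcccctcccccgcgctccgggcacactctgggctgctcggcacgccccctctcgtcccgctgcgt
Ccnd3 start 1 (chr17:47504801-47505050, plus strand): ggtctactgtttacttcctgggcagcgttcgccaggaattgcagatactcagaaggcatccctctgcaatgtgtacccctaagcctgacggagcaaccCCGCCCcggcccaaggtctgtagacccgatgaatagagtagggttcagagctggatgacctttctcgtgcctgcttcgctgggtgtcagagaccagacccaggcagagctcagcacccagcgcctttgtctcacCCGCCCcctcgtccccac
Ccnd3 start 2 (chr17:47593217-47593466, plus strand): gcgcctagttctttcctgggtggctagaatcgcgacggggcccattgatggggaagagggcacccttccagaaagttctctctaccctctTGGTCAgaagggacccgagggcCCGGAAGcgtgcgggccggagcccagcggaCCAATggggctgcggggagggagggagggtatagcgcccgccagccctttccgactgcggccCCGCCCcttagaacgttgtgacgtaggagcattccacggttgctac

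The Cdk4 promoter held 4 E-boxes, beginning at −172, −118, −98 and −11 from the start site, where −1 is the last base printed. Of 32851 promoter stretches of this length, 6.02% held at least 1 E-box. It also held 2 RUNX matches, found in 14.0% of stretches, and 1 GC box, found in 32.7%. The Cdk6 promoter held 1 E-box, at −220, and 1 TATA match, at −103, which 12.4% of stretches hold. Ccnd3 start 1 held 2 GC boxes and no other match, and start 2 held 1 GC box, 1 CCAAT box (33.8% of stretches), 1 ETS match (6.91%) and 1 BCL11A match, at −160 (11.4%). The letters for the cyclic AMP response element, AP-1, E2F and GATA were in none of these 4 stretches. None of the matches overlapped another. The 4 stretches were 59.6% to 66.0% G and C, against a median of 52.4% over all stretches. A match describes letters and is not a bound site.

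Accessibility at the 5 loci was mostly common to T2 and T1, to about the same share as over all regions. All 4 libraries had a peak at 84 of the 147 regions (57.1%), against 56.8% of all regions. Regions with a peak in both T2 libraries and neither T1 library, called T2-only, numbered 9 (6.12%, against a background of 6.88% of all regions). Regions with the opposite pattern, called T1-only, numbered 5 (3.40%, against 2.33%). Both shares lay near the background. A further 15 regions had a peak in 3 libraries, 7 in 1 library of each group, and 27 in a single library. The T2 replicates had peaks at 116 regions each, and T1 replicates 1 and 2 had peaks at 115 and 103.

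**Figure D1:**
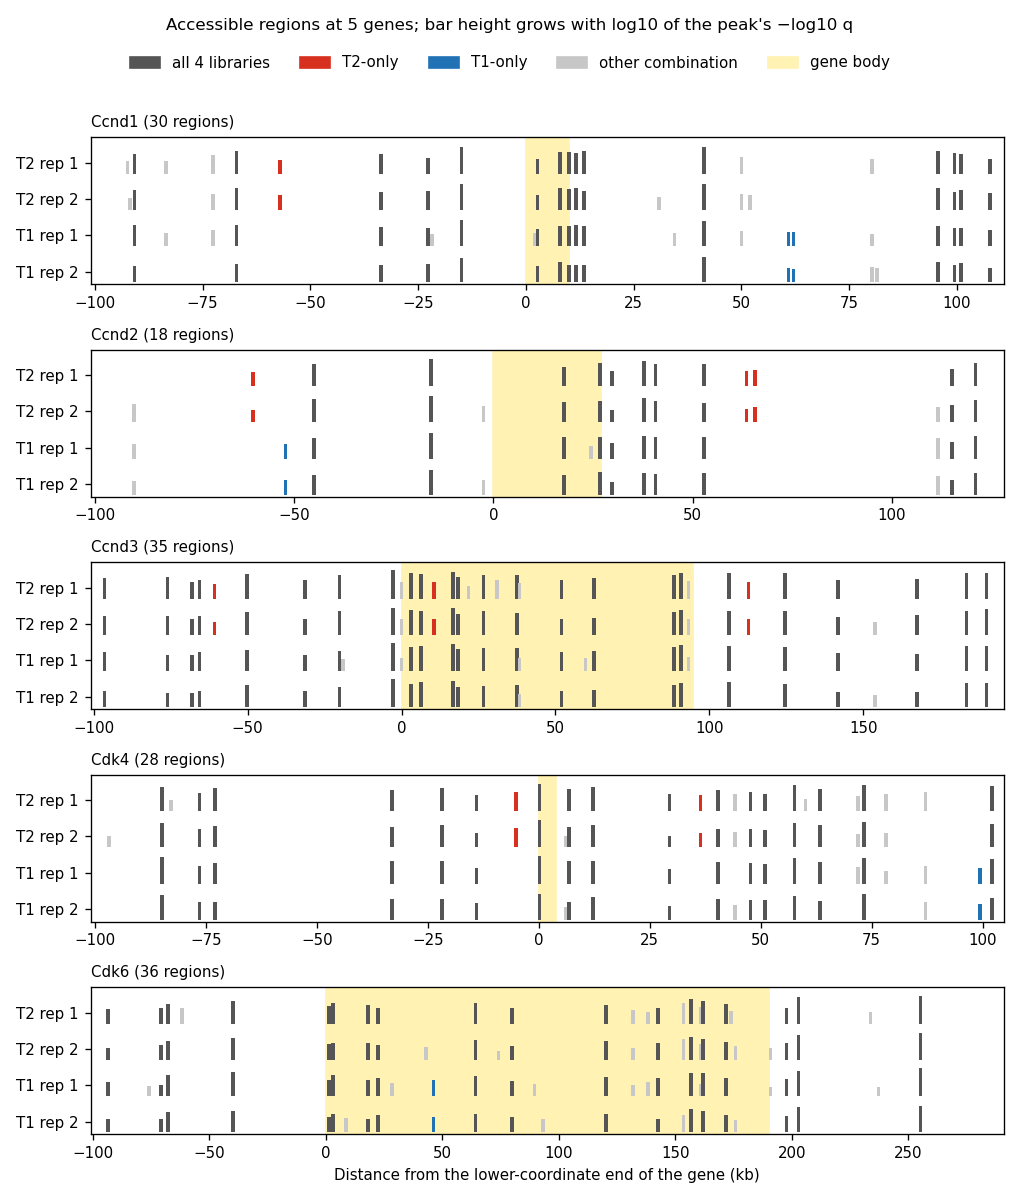
Positions of peaks in the windows of Ccnd1, Ccnd2, Ccnd3, Cdk4 and Cdk6, one row per library, with distance in kb from the gene's lower-coordinate end on the x axis. Bars mark peaks, taller with a larger −log10 q, dark grey where all 4 libraries have the region, red for the 9 T2-only regions, blue for the 5 T1-only regions and light grey for other combinations. Yellow marks the gene body, where 2 of the 14 group-only regions lie.

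The 14 T2-only and T1-only regions were mostly outside the 5 genes, since 2 lay in the bodies of the 5 genes, 5 in another protein-coding gene and 7 in no protein-coding gene. They were small and mostly weak. Their median width was 328 bp, against 750 bp for the 84 shared regions. Over the whole series the same medians were 380 bp for T2-only and T1-only regions and 725 bp for shared regions. The authors' −log10 q, a peak's significance over local background within its own library, was 5.02 to 25.6 at the T2-only regions in T2 and 6.67 to 12.0 at the T1-only regions in T1. Ranked within their own lists, with 100 the strongest percentile, the T2-only peaks stood at 6.03 to 55.5 and the T1-only peaks at 12.8 to 31.1. Such ranges were not taken for T2-only and T1-only regions over the whole series. Weakness is thus not shown to be particular to these 14 regions.

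Shared regions were compared by rank. Within each library the 44274 regions common to all 4 libraries were ranked by −log10 q, from 0 to 100 with 100 the strongest, so every library ranked the same set. A region is called higher in T2 where both T2 ranks lay above both T1 ranks, and higher in T1 in the opposite case. Of the 84 shared regions at the 5 loci, 15 were higher in T2 (17.9%, against a background of 26.3%) and 27 were higher in T1 (32.1%, against 26.2%), and in 42 the groups overlapped. Groups did not overlap in the other 42, against a background of 52.5% of all shared regions. The median difference, T2 minus T1, was −1.57 percentile points, with median mean ranks of 52.4 in T2 and 53.9 in T1. Over all shared regions the median difference was 0.0215, with lower and upper quartiles of −5.80 and 6.09. The library medians over the 84 regions were 52.5 and 51.9 in T2 and 54.7 and 54.4 in T1, and the groups did not overlap. At single regions over the whole series, replicates differed by a median of 4.91 points in T2 and 4.96 in T1. With 2 libraries against 2, an exact two-sided permutation test cannot give a p below 0.333, so no region is called significant. When each peak was ranked in its own list, where the longer T2 lists place shared regions higher, 24 regions were higher in T2 (28.6%, against 40.6% of all shared regions) and 13 in T1 (15.5%, against 14.2%). The median difference was then 1.74, against 3.15 over all shared regions, so its sign follows the scaling and it lay below the series median under both rankings.

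**Figure D2:**
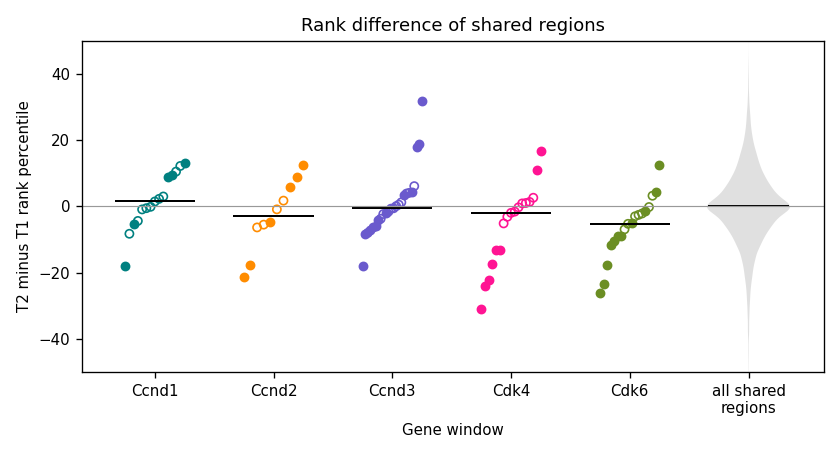
T2 minus T1 rank difference, in percentile points, of the shared regions in each gene window, with all 44274 shared regions as the grey outline and medians as black lines (43 of those regions fall outside the axis). Filled points are regions whose T2 and T1 ranks do not overlap, and the Cdk6 median of −5.17 is the lowest of the 5.

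The shared regions were then split into gene bodies and flanks, after the values were seen. Of 27 shared regions in the 5 bodies, 3 were higher in T2 (11.1%) and 11 higher in T1 (40.7%), whereas among shared regions in all protein-coding gene bodies 25.3% were higher in T2 and 27.2% higher in T1. Of the 57 shared flanking regions, 12 were higher in T2 (21.1%) and 16 in T1 (28.1%), and the difference between bodies and flanks was not tested. Ccnd3 and Cdk6 held 5 and 4 of the 11 body regions higher in T1, and regions of 1 gene are not independent. With peaks ranked in their own lists, 6 body regions were higher in T2 (22.2%, against 39.0% of shared regions in all protein-coding gene bodies) and 3 higher in T1 (11.1%, against 14.5%). Which direction has more regions thus depends on the ranking.

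The windows of the 3 cyclin genes differed in the number of accessible regions. Ccnd3 (chromosome 17, 47505051 to 47599689) had 35 regions in its window, exceeded by 1.43% of protein-coding genes. Ccnd1 (chromosome 7, 144929931 to 144939831) had 30, exceeded by 4.62% of genes, and Ccnd2 (chromosome 6, 127125162 to 127152188) had 18, exceeded by 31.3%. A single library gave the peak at 4 of these regions for Ccnd3, 8 for Ccnd1 and 1 for Ccnd2. Peaks covered 15948 to 20773 bp per library at Ccnd3, 8482 to 11651 at Ccnd1 and 8294 to 9675 at Ccnd2. Ccnd1 and Ccnd2 thus overlapped in bases covered. Windows differ in length. Per 100 kb the densities were 11.9 regions for Ccnd3, 14.3 for Ccnd1 and 7.93 for Ccnd2, against a median of 5.42 over all genes.

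Ccnd1, the cyclin gene best known from epithelial tissues and as a target of mitogenic signals, had peaks at 21 and 21 regions in T2 replicates 1 and 2 and at 24 and 19 in T1 replicates 1 and 2. The T2 counts lay within the T1 range. The region over the higher-coordinate gene end (144939571 to 144940303) was present in every library, with −log10 q of 42.6 and 34.6 in T2 and 30.6 and 16.1 in T1. Its ranks were 52.9 and 51.6 in T2, above 46.8 and 31.1 in T1, a mean difference of 13.2 points, which the distance between the T1 replicates exceeded. Inside the gene, the region at 144932357 to 144932937 ran the other way, with ranks of 3.30 and 7.48 in T2 and 23.7 and 23.1 in T1 (difference −18.0). The table gives no strand for Ccnd1, so which end is the start was not taken from it.

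The strongest shared regions of the Ccnd1 window had ranks that overlapped between groups. One lay at LTO1, 14.3 kb from Ccnd1, with ranks of 88.2 and 89.8 in T2 and 90.4 and 88.6 in T1. The other, in no protein-coding gene 31.1 kb on the higher-coordinate side, had 90.1 and 89.7 in T2 and 83.8 and 90.1 in T1. At Fgf4, a fibroblast growth factor gene, ranks of 60.6 and 58.5 in T2 lay just above 58.0 and 42.2 in T1 (difference 9.43). The T1 replicates at Fgf4 were further apart than that difference. At Fgf15, the bile acid responsive hormone gene, 30.8 and 29.4 in T2 lay below 36.1 and 34.8 in T1 (difference −5.37). The only T2-only region of the window, at 144872341 to 144873321 and 56.6 kb away, had −log10 q of 7.17 and 9.43 in T2. The 2 T1-only regions lay side by side 50.9 and 52.0 kb on the opposite side. The first, starting at 144990688, had −log10 q of 8.27 and 8.37 in T1, and the second, starting at 144991881, had 7.27 and 6.67.

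Ccnd2, whose product is the main D cyclin of many blood progenitors, had peaks at 13 and 16 regions in T2 and at 14 and 14 in T1, and the groups overlapped. The region over its higher-coordinate end (127150964 to 127152873) was shared and overlapped between groups, with ranks of 63.1 and 57.5 in T2 and 58.1 and 75.2 in T1. This is also where the long noncoding RNA gene 9330179D12Rik lies, so peaks there cannot be given to 1 of these genes. Within the gene body, the region at 127142179 to 127143572 ranked 27.4 and 52.1 in T2 and 61.0 and 53.8 in T1 (difference −17.7). The T2 replicates were further apart from each other than that mean difference.

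Around Ccnd2 the flanking regions went both ways. The strongest, at Tigar, which encodes a fructose bisphosphatase, 15.2 kb away, ranked 92.6 and 94.2 in T2 and 87.6 and 87.2 in T1 (difference 6.01). The next, in 9330179D12Rik 10.6 kb away (127162767 to 127163248), ranked 80.5 and 80.8 in T2 and 71.3 and 72.1 in T1 (difference 8.96), with each pair of replicates within 1 point. At Fgf23, the phosphate hormone gene, the shared region ranked 58.7 and 74.1 in T2 and 52.9 and 55.0 in T1 (difference 12.5). The T2 replicates there were further apart than that difference. In the opposite direction, the region 25.5 kb away in 9330179D12Rik (127177641 to 127178504) ranked 53.6 and 40.0 in T2 and 64.3 and 72.1 in T1 (difference −21.4).

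Ccnd2 had 3 T2-only regions and 1 T1-only region, and none lay in the gene body. Of protein-coding genes, 2.60% had more T2-only regions and 4.51% had more T1-only regions. The T2-only pair in 9330179D12Rik lay 36.3 and 38.5 kb from the gene. The first, starting at 127188462, had −log10 q of 8.84 and 5.73 in T2, and the second, starting at 127190644, had 10.6 and 9.01. The third, on the other side at 127064741 to 127065126, was the weakest of all 9, with 7.58 and 5.02 in T2. The T1-only region, within Fgf23 at 127072781 to 127073298, had 8.74 and 8.42 in T1. When peaks below a −log10 q of 10 were dropped, Ccnd2 had 0 T2-only regions, and the Fgf23 region was gone too. The 1 T1-only region was then another, 84.3 kb away at 127236445 to 127236952, where −log10 q was 9.55 in T2 replicate 2 with no deposited peak in T2 replicate 1, and 32.8 and 24.3 in T1.

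Ccnd3, the D cyclin needed for maturing lymphoid and erythroid cells, had peaks at 32 and 30 regions in T2 and at 29 and 26 in T1. Both T2 counts lay above both T1 counts, as the T2 lists were also longer overall (66764 and 62704 peaks in T2 and 58454 and 54045 in T1). Its body held 17 regions, 10 of them in all 4 libraries. The 2 listed starts, whose upstream sequences are printed above, were unlike each other. The second start, towards the higher-coordinate end, lay in a region of 845 bp (47593171 to 47594015) with −log10 q of 69.6 and 63.6 in T2 and 75.0 and 57.6 in T1. Its ranks were 71.2 and 74.5 in T2, just below 77.0 and 76.7 in T1 (difference −3.99). The first start lay in a weak region (47504871 to 47505194), where −log10 q was 12.8 and 10.7 in T2, and 6.43 in T1 replicate 1 with no deposited peak in T1 replicate 2.

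Within Ccnd3, the strongest region (47521384 to 47522167) did not separate the groups, with ranks of 93.0 and 95.6 in T2 and 92.5 and 95.0 in T1. Among the 5 body regions higher in T1, the largest difference was at 47556627 to 47557423, with ranks of 20.9 and 12.0 in T2 and 42.8 and 26.0 in T1 (difference −18.0). Closer to the first start, the region at 47511089 to 47511587 ranked 79.0 and 78.4 in T2 and 84.6 and 89.6 in T1 (difference −8.41). The 1 body region higher in T2 was the nearest region before it, at 47507803 to 47508501, with 82.3 and 85.9 in T2 and 80.6 and 78.8 in T1. Adjacent regions of the same gene thus went in opposite directions. The body also held a T2-only region at 47515564 to 47515814, whose −log10 q was 14.6 and 10.3 in T2.

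The Ccnd3 flanks hold 11 other protein-coding genes, and 17 of the 18 flanking regions lay in one of them. The strongest was at Taf8, which encodes a subunit of the general factor TFIID, with ranks of 98.1 and 95.4 in T2 and 97.4 and 99.3 in T1. The largest rank difference in favour of T2 among the 84 shared regions was at 1700001C19Rik, 75.8 kb from Ccnd3, with 49.1 and 36.1 in T2 and 12.5 and 8.83 in T1 (difference 31.9). At Usp49, a deubiquitinase gene, ranks were 32.6 and 46.4 in T2 and 25.3 and 16.0 in T1 (difference 18.8). T2-only regions lay at Med20, a Mediator subunit gene (47617542 to 47618047, −log10 q of 13.5 and 11.2 in T2), and at AI661453 (47444182 to 47444480, 9.0 and 5.18 in T2). Ccnd3 had 0 T1-only regions, and 21.9% of protein-coding genes had more. More T2-only regions than Ccnd3 were found at 2.60% of genes. The reference also lists a pseudogene, Ccnd3-ps, on chromosome 4, and how reads that match both were treated is not given in the sources used here.

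**Figure D3:**
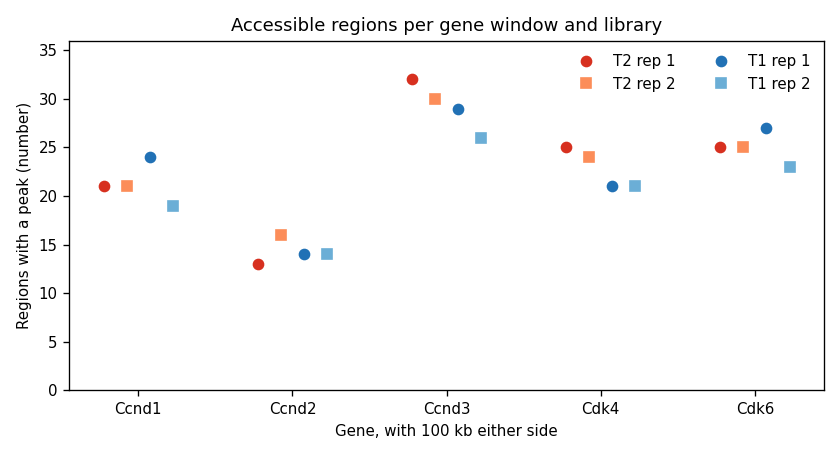
Number of regions with a peak in each gene window, by library, with T2 replicates in red tones left of T1 replicates in blue tones. At Ccnd3 and Cdk4 both T2 libraries lie above both T1 libraries, as they do over the whole series, and at Ccnd1, Ccnd2 and Cdk6 the groups overlap.

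The 2 kinase genes contrasted in where their accessible regions lay. Cdk4 (chromosome 10, 127063535 to 127067288) is short, and 27 of the 28 regions in its window lay outside it, 19 of them in other protein-coding genes. Cdk6 (chromosome 5, 3341004 to 3531008) is long, and 24 of its 36 regions lay inside it. Only 1.12% of protein-coding genes had more regions than Cdk6, but per 100 kb 22.2% had more, against 3.27% for Cdk4.

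Cdk4, the kinase gene with 4 E-boxes before its start, had the highest-ranked region of those at the gene ends and starts shown. The region over the start (127063210 to 127064184) had −log10 q of 173 and 159 in T2 and 168 and 135 in T1. The authors' fold over local background at its summit was 15.8 and 17.4 in T2 and 15.4 and 16.3 in T1. Its ranks were 95.0 and 96.3 in T2 and 94.5 and 95.0 in T1. The groups overlapped, and the difference of 0.911 points was below the spread of the T2 replicates.

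**Figure D4:**
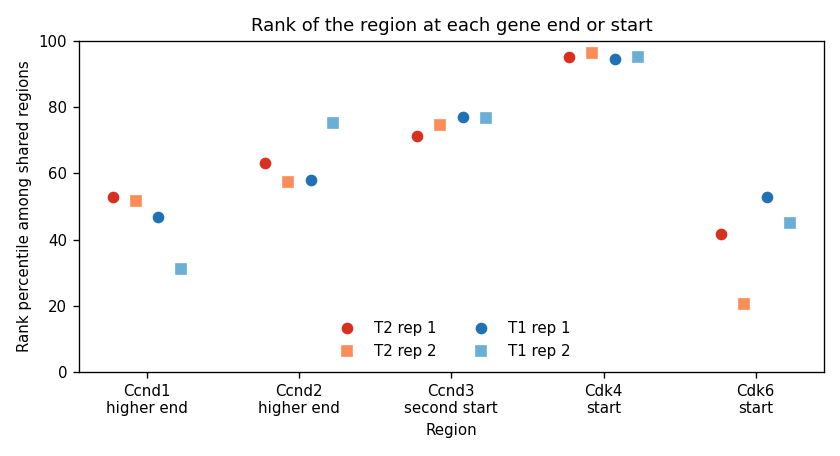
Rank percentile (100 strongest, among regions shared by all libraries) of the region at the higher-coordinate end of Ccnd1 and Ccnd2 and at a listed start of Ccnd3, Cdk4 and Cdk6, with 1 point per library. Cdk4 lies between 94.5 and 96.3 in every library, and Cdk6 lies at 41.8 and 20.6 in T2, below 52.8 and 45.0 in T1.

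The Cdk4 window had peaks at 25 and 24 regions in T2 and at 21 and 21 in T1, without overlap. The whole series had the same order, with peaks at 66134 and 61672 regions in T2 and at 57957 and 53188 in T1. The strongest T2-only region of all 9 lay here, 5.02 kb on the lower-coordinate side in Marchf9, a ubiquitin ligase gene, at 127058189 to 127058518. Its −log10 q was 23.5 and 25.6 in T2, at percentiles of 49.5 and 55.5 of those lists, and neither T1 library had a deposited peak. A second T2-only region lay in Os9 (127099700 to 127100155), with 11.0 and 8.58 in T2. The T1-only region was at the edge of the window, 95.5 kb away in the noncoding gene Gm51819 (127162813 to 127163079), with 10.6 and 12.0 in T1.

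Shared regions in the Cdk4 window were higher in T1 at 6 and higher in T2 at 2, of 17. Over all shared regions 26.2% were higher in T1 and 26.3% higher in T2. The 3 largest differences all lay in Os9, which encodes a lectin of endoplasmic reticulum quality control. The largest 2 also lay in the noncoding gene Gm40799, so they cannot be given to 1 of these genes. At 127114327 to 127114738, ranks were 14.9 and 24.1 in T2 and 46.8 and 53.8 in T1 (difference −30.8), the lowest of the 84. At 127111013 to 127111510 they were 29.4 and 34.4 in T2 and 55.6 and 56.1 in T1 (difference −24.0), and at 127103608 to 127104303 they were 44.3 and 33.6 in T2 and 58.4 and 63.7 in T1 (difference −22.1). All 3 differences were larger than the distance between replicates of either group. In the opposite direction, a region at Ctdsp2, a phosphatase gene, ranked 62.9 and 56.9 in T2 and 51.8 and 34.5 in T1 (difference 16.7). The T1 replicates there were further apart than that difference. An intergenic region 59.3 kb away ranked 62.1 and 67.4 in T2 and 57.8 and 49.4 in T1 (difference 11.1). The strongest region after the Cdk4 start, 69.1 kb away in no protein-coding gene, overlapped between groups, with 87.7 and 86.0 in T2 and 84.7 and 92.9 in T1.

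Cdk6, the kinase gene tied to stem cell activation, was the locus with the most shared regions higher in T1. Of its 18 shared regions, 2 were higher in T2 and 9 higher in T1, against 26.3% and 26.2% of all shared regions. The median difference was −5.17 points, with median mean ranks of 30.5 in T2 and 36.7 in T1. The excess of T1-higher regions was 7 and stayed on the T1 side in all 12 alternatives run, which all draw on the same libraries. T2-higher minus T1-higher regions came to −10 at the lowest and −1 at the highest, which peaks ranked in their own lists gave. The number of regions with a peak did not separate the groups, at 25 and 25 in T2 and 27 and 23 in T1.

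The region over the Cdk6 start (3343596 to 3344625) was moderate, with −log10 q of 32.6 and 15.7 in T2 and 35.7 and 23.1 in T1 and a fold of 5.42 and 4.32 in T2 and 5.83 and 5.42 in T1. Its ranks were 41.8 and 20.6 in T2, below 52.8 and 45.0 in T1 (difference −17.7). The 2 T2 replicates were further apart than that difference. A broad neighbouring region of 2197 bp at the lower-coordinate gene end (3341181 to 3343377) was weaker and overlapped between groups, with ranks of 18.0 and 10.5 in T2 and 17.2 and 15.6 in T1.

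Inside Cdk6, the largest difference was at 3363188 to 3363834, with ranks of 6.07 and 8.57 in T2 and 30.9 and 30.6 in T1 (difference −23.4). Replicates of each group lay close together there. The nearest region before it, at 3358768 to 3359281, went the other way, with 25.1 and 19.5 in T2 and 12.6 and 7.06 in T1 (difference 12.4). The T1-only region of the window was also inside the gene (3387076 to 3387441), with −log10 q of 11.1 and 9.97 in T1, and Cdk6 had 0 T2-only regions. Of protein-coding genes, 49.9% had more T2-only regions and 4.51% had more T1-only regions than Cdk6. The Cdk6 counts depended on the threshold. When peaks below a −log10 q of 10 were dropped there was 1 T2-only region and there were 0 T1-only regions. The T2-only one lay inside the gene at 3501666 to 3502043, where −log10 q was 13.7 and 11.0 in T2, and 4.50 in T1 replicate 1 with no deposited peak in T1 replicate 2.

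Outside Cdk6, the region 67.5 kb on the lower-coordinate side in the noncoding gene Gm36548 (3273116 to 3273469) had ranks of 32.4 and 30.2 in T2 and 55.7 and 58.8 in T1 (difference −26.0), again larger than either replicate distance. Another region in that gene, 70.6 kb away, was weak and higher in T2, with 5.74 and 8.64 in T2 and 0.289 and 5.36 in T1 (difference 4.37). Its T1 replicates were further apart than that difference. A strong shared region at Fam133b ranked 90.0 and 86.4 in T2 and 86.4 and 90.4 in T1, and the groups overlapped.

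**Figure D5:**
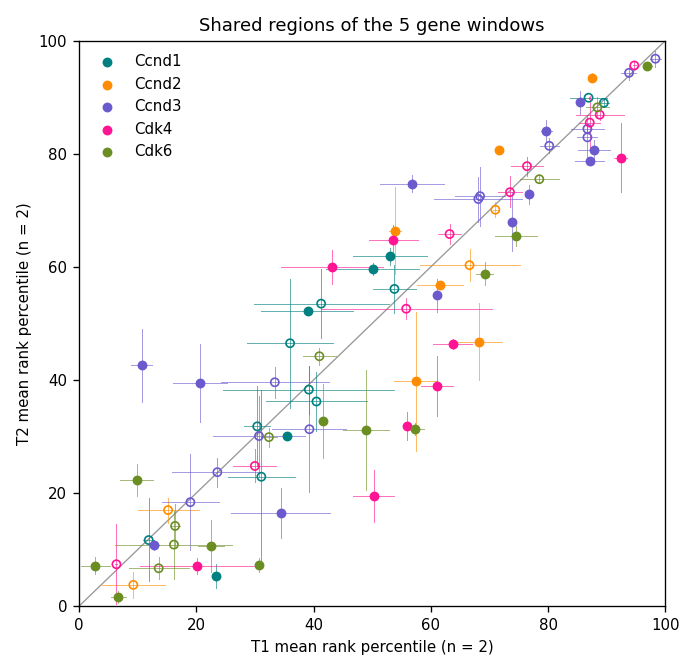
Mean rank percentile in T2 (y axis) against T1 (x axis) of the 84 shared regions, coloured by gene, with lines joining the 2 replicates of each group. Filled points are the 42 regions whose groups do not overlap, 15 of them above the diagonal and 27 below it, and open points are the 42 whose groups overlap.

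The reach of 100 kb set which regions were counted. The outermost regions inside the windows lay up to 97.6 kb from the gene bodies, and the first ones outside lay 102 to 142 kb away. The closest outside, 102 kb from Ccnd2, was shared, with −log10 q of 43.4 and 27.0 in T2 and 57.7 and 40.9 in T1. Within 10 kb of the bodies there were 34 shared regions, 2 T2-only and 1 T1-only.

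Other genes of the G1 to S pathway were described in the same windows, from lists drawn up with earlier results of these data known. Over all regions, the background for each list here and below, 6.88% were T2-only and 2.33% T1-only. The 15 CDK4/6 inhibitors, activating kinase subunits and cyclin D turnover genes had 230 regions, 15 of them T2-only (6.52%) and 5 T1-only (2.17%). Cdkn1a, the p21 inhibitor gene, had 4 and 0, Cdkn1c, the p57 gene, had 3 and 1, Cdk7, the activating kinase gene, had 0 and 2, and Ambra1, which directs D cyclins to degradation, had 1 and 1. The 13 pocket protein and E2F genes had 14 (5.93%) and 10 (4.24%) of 236, with 3 and 2 at E2f2, 3 and 1 at E2f6 and 0 and 2 at Tfdp1, the E2F dimer partner. Rb1, the retinoblastoma gene, had 0 and 1 of 25. The 9 cyclin E, cyclin A and CDK2 genes had 12 (9.38%) and 2 (1.56%) of 128, with 4 and 2 at Ccne1 and 3 and 0 at Cks1b.

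The 9 mitotic genes had 147 regions, 8 of them T2-only (5.44%) and 2 T1-only (1.36%), with 4 and 2 at Cdc25c and 1 and 0 at Aurka. The 11 other cyclin and CDK genes had 7 (3.87%) and 5 (2.76%) of 181, with 3 and 2 at Ccnf, 2 and 0 at Cdk12 and 1 and 1 at Ccnt1. Among shared regions, the mitotic list had 33.7% higher in T2 and 21.8% higher in T1, and the list of other cyclins and CDKs had 23.9% and 33.9%. The inhibitor and activator list had 22.5% and 28.5%, the pocket protein and E2F list 23.5% and 26.5%, and the cyclin E, cyclin A and CDK2 list 20.3% and 27.8%. For the 5 genes these shares were 17.9% and 32.1%, and over all shared regions they were 26.3% and 26.2%. The differences between lists were not tested, and lists of this size hold 79 to 151 shared regions.

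By the number of regions with a peak in each of the 4 libraries, the genes most like Ccnd1 were Uhrf1 and Tmcc1, each 1 region apart summed over the libraries. Malsu1 and LOC666331 were 1 region apart from Ccnd2, and St3gal1 and Rnaseh2a were 1 apart from Cdk6. Vars and Plppr3 matched Ccnd3, and Prkar1b and Zfp36 matched Cdk4, in every library. Likeness over 4 counts is a description, and up to 5 genes tied at the smallest distance.

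Peaks at markers did not separate cell types, so they neither bear out nor contradict the MPP3 label. A peak lay in or within 1 kb of 10 and 11 of 12 granulocyte-monocyte progenitor genes in T2 and 11 and 11 in T1. Mature neutrophil genes had a peak at 0 and 0 of 4 in T2 and 1 and 1 in T1, with Ngp, Retnlg and S100a9 without a peak in any library. Peaks were also found at B cell genes (4 and 4 of 4 in T2, 4 and 3 in T1), T cell genes (3 of 4 in every library), erythroid genes (3 of 4 in every library) and all 3 megakaryocyte, 3 endothelial and 4 stromal genes. Genes of other tissues had a peak at 4 and 4 of 4 in T2 and 4 and 3 in T1. Their part in the results at the 5 loci was not tested.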

How the data were processed

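Titles put 2 libraries in T2 and 2 in T1. Per the submitters' processing notes, the tools were Bowtie2, SAMtools and MACS2, on mm10. Their versions and settings, any read filter and any shift of reads for transposase insertion were not given in the sources used here. Each deposited list carries 1 peak name prefix, so the authors called peaks per library. In MACS2's column order the deposited values are a fold (ratio of summit to local background), a −log10 p, a −log10 q (at least 2.00 in every list), a score derived from it, and a summit offset. These are the authors' values within a library and not read counts, so depth and counting intervals are unknown and no count model was fitted.

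Chromosomes other than 1 to 19, X and Y were left out (12 to 15 peaks per list), and peaks were joined at 1 bp of overlap in Python 3.11.15 with pandas 2.3.3. Gene positions came from RefSeq on GRCm38.p6, which gives no exons, so exon, intron and UTR positions are not given. A region's rank used its best −log10 q. The members and lists were chosen with earlier results of these data known. The text names, per window, every group-only region, the 2 strongest shared regions, and per direction the 2 largest rank differences without group overlap. One region that this rule selects is not reported here. Per pathway list and direction it names the 2 genes with most group-only regions, and per member the 2 genes most alike. The third Os9 region, the regions at gene ends and starts, Rb1 and the Ccnd3 region higher in T2 were added after their values were seen. So were the regions at 3501666 (Cdk6), 47598129 (Ccnd3) and 127236445 (Ccnd2). The procedure was run on simulated lists with planted differences, little noise and no peaks of a single library. That checks the code and not the calls made here. Spread between replicates may be technical.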

Additional observations from a re-analysis of the deposited data

How the results depend on the processing

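No paired analysis was possible because the T2 against T1 results come from no fitted test to which a replicate block could be added. The split of the libraries by replicate number was not run. With −log10 q of at least 10, T1-only regions in the 5 windows numbered 3, against 5 as deposited, and only the Cdk4 region was in both sets. At Ccnd1 it was then the region at 144932357 to 144932937, with dropped peaks of 8.19 and 9.11 in T2. T2-only regions numbered 6 of 105 regions, against 9 as deposited. Those starting at 47515564 and 47617542 (Ccnd3) and at 127058189 (Cdk4) were in both sets. The others started at 47504871 and 47598129 (Ccnd3) and at 3501666 (Cdk6), where a weaker peak of T1 replicate 1 was dropped. Over all regions 8.08% were then T2-only and 2.25% T1-only. T2-only minus T1-only regions turned to −1 at Ccnd2, and they turned to 1 at Cdk6. With 10 kb windows there were 60 regions, 34 shared, 2 T2-only, 1 T1-only and 15 without rank overlap, and the median rank difference was −3.56. With 50 kb windows there were 97 regions and 1 T1-only, the median was −3.05, and T2-higher minus T1-higher regions turned to −1 at Ccnd1. Summit windows gave 8 T1-only regions and a median of −0.959. Ranking by the fold gave a median of −2.80 and −1 at Ccnd1. Ranking in the own list gave a median of 1.74, T2-higher minus T1-higher regions of 5 at Ccnd3, and 3 in the gene bodies. The longer T2 lists raise T2 ranks there by construction, for all regions as for these, and for the other changes the cause was not tested.

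Leaving out each library gave 11 to 17 T2-only, 7 to 15 T1-only, 86 to 92 shared and 138 to 144 regions in all, 61 to 70 without rank overlap and medians of −2.06 to −1.06. T1-only regions reached 15 without T1 replicate 2, and T2-only regions reached 17 without T2 replicate 1, T2 replicate 2 or T1 replicate 1. With 1 library deciding for its group, such counts rise by construction. Over all regions the shares in these settings were 9.67% to 15.7% T2-only and 3.44% to 6.14% T1-only. The counts without rank overlap rise in the same way. Over all shared regions 38.0% to 38.5% were then higher in T2 and 37.1% to 38.1% higher in T1. With all libraries those shares were 26.3% and 26.2%. T2-only minus T1-only regions ranged from −4 to 2 at Ccnd1, positive at 2 without T2 replicate 1, and from −4 to 2 at Cdk6, positive at 1 without T2 replicate 1 and 2 without T2 replicate 2. T2-higher minus T1-higher regions ranged from −3 to 2 at Ccnd3, positive without T2 replicate 2. With lists of equal length there were 6 T2-only and 6 T1-only regions, and over all regions the shares were then 4.33% T2-only and 4.60% T1-only. Of 67 recomputed totals over the 5 windows, 42 stayed within 1.5 times or within the replicate spread, and 25 moved beyond it. Depth, which the lists do not give, limits how far absence of a peak can be read as closed chromatin.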
